A study of Rattus norvegicus with 24 samples.

Results

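AH609, an agent known in the labels by its code name alone, was compared with DMSO, the solvent given to the control cultures, in rat cortical cells kept in fresh growth medium without added glutamate. The comparison rests on 6 of the 24 RNA sequencing libraries of the series, 3 titled AH609 and 3 titled DMSO, and the libraries were chosen by their titles. The study plated rat neuronal cells, kept them for 8 days and then gave them fresh growth medium, or medium holding 250 μM glutamate, and scanned them for 4 h in a live-cell imager. The other libraries came from cultures given DMSO, AH609 or the agents IS141 and AH236 in either medium, and each of the 8 groups had 3 libraries. The labels give no dose, time of addition or identity for AH609, and they name no strain, age or sex of the animals. They do not say whether the libraries of a group came from separate cultures. The p-values thus reflect how far libraries of the same group scatter, part of which may be technical. In the fit of all 24 libraries this scatter was estimated over the 8 groups together, not over the 6 compared libraries alone.

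Cortical cultures hold excitatory neurons, which release glutamate, and inhibitory neurons, which release GABA, usually with some glial cells. Glutamate opens ion channels on the neurons, and too much of it injures them, which is called excitotoxicity. In fresh medium no such injury is added, so the comparison of AH609 with DMSO asks what the agent did to the transcriptome of the cultures by itself.

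The 6 libraries held between 23681480 and 30001744 counts, with between 19277 and 19857 genes detected. The table gives Ensembl gene IDs and the sources used here pair 0 of them with a symbol. The labelled cell type could therefore not be checked against marker genes, no pathway list could be scored, and 4 genes are given by their IDs, with no statement of what they encode.

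The library titled DMSO with no number, called DMSO replicate 1 here, stood apart from the rest. Levels are given as counts scaled to a common library size (CPM), with library sizes adjusted by the trimmed mean of M values (TMM). The SD over genes of the log2 difference between DMSO replicates 2 and 3 was 0.321, and for the 3 pairs of AH609 libraries it lay between 0.335 and 0.344. DMSO replicate 1 differed from DMSO replicates 2 and 3 with an SD of 0.542 and 0.550, and from the AH609 libraries with an SD of 0.522, 0.504 and 0.478. It was thus farther from both other controls than any AH609 library was, since the 6 pairs of an AH609 library with DMSO replicate 2 or 3 lay between 0.374 and 0.388. The median SD of a gene within the group was 0.152 log2 units for DMSO, 0.0763 for DMSO replicates 2 and 3 alone and 0.0900 for AH609. An SD from 2 libraries tends to come out lower than one from 3, so 0.0763 is not directly comparable with the others. The results of the comparison are therefore given with and without DMSO replicate 1.

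**Figure D1:**
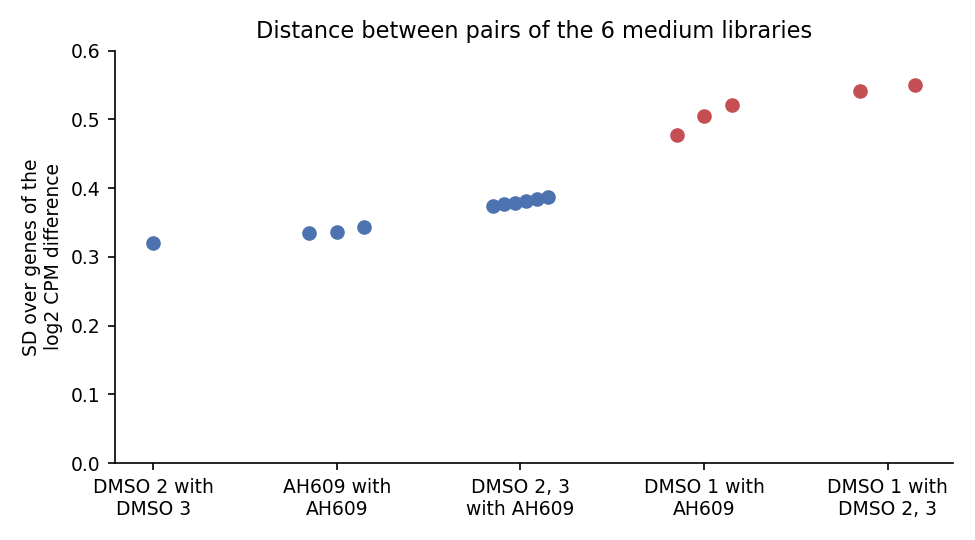
Each point is a pair of the 6 medium libraries, placed by the SD over genes of the difference in log2 CPM (vertical axis) within 5 kinds of pair (horizontal axis). Pairs with DMSO replicate 1 (red) lie between 0.478 and 0.550, and all other pairs (blue) between 0.321 and 0.388.

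With AH609, 352 genes were higher and 135 lower than with DMSO (edgeR quasi-likelihood test, adjusted p under 0.05), among 15908 tested in a fit of all 24 libraries. These were 2.21% and 0.849% of the genes, or 3.06% in both directions. The 6 compared libraries fitted by themselves gave 3 calls. The RNA came from whole cultures, so fewer cells of a type and less RNA per cell cannot be told apart. Most of the changes were small. Only 58 rises and 32 falls reached 1.5-fold, and 15 rises and 15 falls reached 2-fold. With DMSO replicate 1 left out, 719 genes rose (4.46%) and 284 fell (1.76%), together 6.22% of 16119 tested, where 216 rises and 42 falls reached 1.5-fold and 96 and 18 reached 2-fold. The excess of rises depended on the scaling. With library totals in place of TMM, the median of all log2 fold changes was -0.05 in place of -0.01, and the test gave 224 higher and 250 lower genes, or 550 higher and 419 lower without DMSO replicate 1.

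Both fits called 382 genes in the same direction, 299 higher and 83 lower, and 0 genes in opposite directions. These were 78.4% of the genes called with all libraries and 38.1% of those called without DMSO replicate 1. All 105 genes called only with all libraries kept their sign when the library was left out, as did 552 of the 621 genes called only without it. In the 420 genes called higher only without DMSO replicate 1, that library lay beyond the AH609 mean in 304 and between the AH609 mean and the midpoint of the groups in 99. In the 201 called lower only without it, the numbers were 119 and 58. Of the 299 genes called higher in both fits, DMSO replicate 1 lay nearer to AH609 than to DMSO replicates 2 and 3 in 66, or 22.1%. Which genes fall in these sets follows in part from how they were chosen, so the positions are a description.

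**Figure D2:**
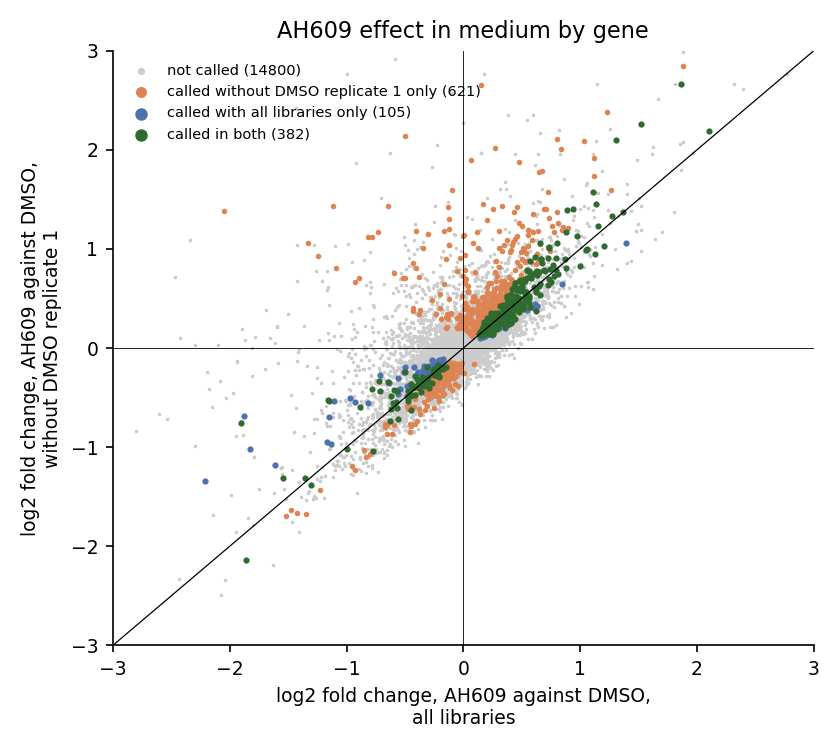
Each point is a gene tested in both fits, with its log2 fold change for AH609 against DMSO in the fit of all libraries (horizontal axis) and without DMSO replicate 1 (vertical axis). Colours mark the 382 genes called in both fits, the 105 called with all libraries only and the 621 called without DMSO replicate 1 only, of which 552 have the same sign on both axes. The axes end at 3 in either direction and leave out 19 genes.

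The number of calls depended on which libraries entered the fit, a choice that also sets the estimate of the spread, the filter and the genes tested. The 24 libraries were fitted together with 1 mean per group and 1 estimate of the spread shared by the 8 groups. The median SD of a gene was 0.152 log2 units in the DMSO medium group and between 0.0900 and 0.112 in the other groups. When the 12 medium libraries were fitted alone, 137 genes were higher and 40 lower. When the 6 compared libraries were fitted alone, with 14805 genes tested, 2 were higher and 1 lower, with log2 fold changes of 0.74, 0.86 and -0.997, while 1396 genes had an unadjusted p under 0.05. The same groups without DMSO replicate 1 gave 807 higher and 433 lower. A fit with sample weights (limma voom), which gave DMSO replicate 1 a weight of 0.136, the lowest of the 24, called 724 higher and 355 lower. Leaving out an AH609 library lowered the count to 223, 250 and 244 genes for replicates 1, 2 and 3. Leaving out DMSO replicate 2 or 3 raised it, to 634 and 594 genes. Across the fits of all libraries with TMM, RLE size factors, DESeq2 and sample weights and the fit without DMSO replicate 1, 292 genes were called higher in all 5 and 77 lower. With all libraries and with each of the 6 compared libraries left out in turn, 123 genes were called higher and 20 lower every time.

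**Figure D3:**
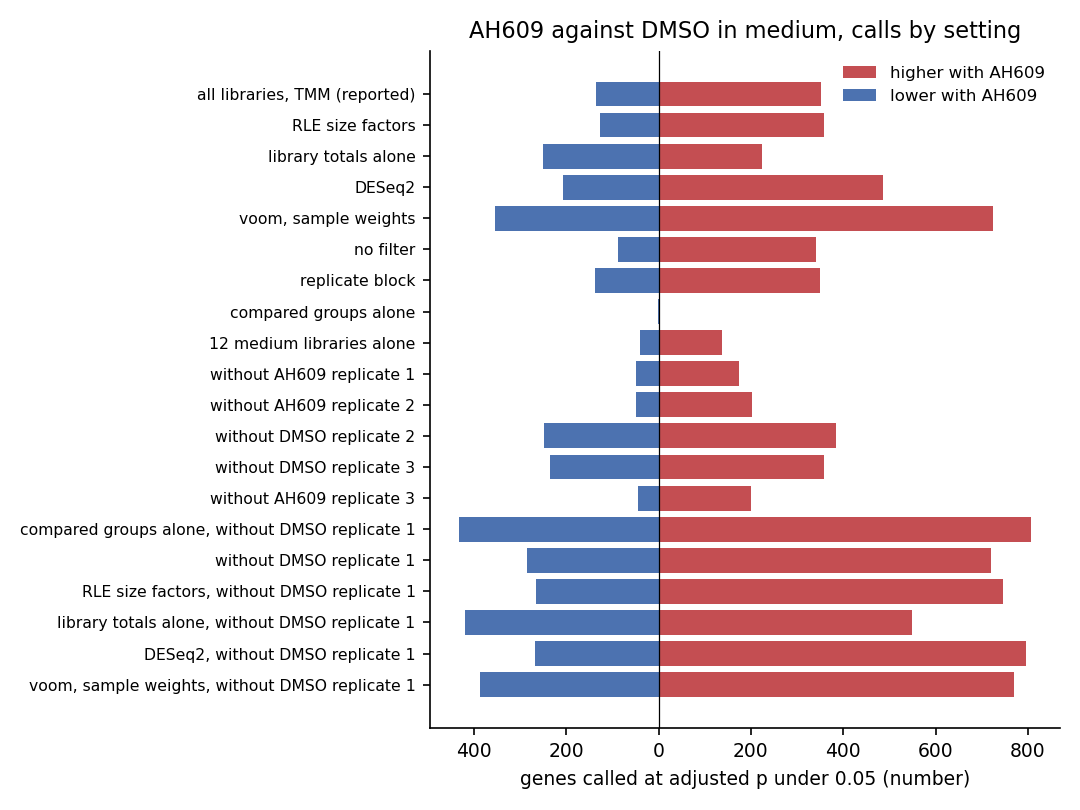
Bars give the number of genes called higher (red, to the right) and lower (blue, to the left) with AH609 than with DMSO in medium, for the reported fit (352 and 135) and each alternative. The fit of the compared groups alone gave 2 and 1, and every setting without DMSO replicate 1 gave at least 550 and 266.

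All 3 AH609 libraries lay above all 3 DMSO libraries in 341 of the 352 genes called higher, and below them in 131 of the 135 called lower. Over all genes tested this separation was found upward in 8.86% and downward in 7.91%. Set against DMSO replicates 2 and 3 alone, the AH609 libraries lay above both in 351 and below both in 134 of these genes, where 19.1% and 17.2% of all genes did so. The test itself uses these values, so the separation adds no independent evidence.

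Calls were more frequent among abundant genes. The genes were split into 4 classes of equal size by mean level. In the lowest class, up to 1.18 log2 CPM, 27 of 3977 genes were called (0.679%), with a median absolute log2 fold change of 1.30. In the highest class, from 5.59 log2 CPM, 220 of 3977 were called (5.53%), 176 higher and 44 lower, with a median absolute change of 0.24. The median standard error of the log2 fold change went from 0.36 in the lowest class to 0.06 in the highest, so small changes were measured with less error in abundant genes. Without DMSO replicate 1, 92 of 4030 genes in the lowest class were called (2.28%) and 410 of 4030 in the highest (10.2%), 290 higher and 120 lower, with median absolute changes of 1.28 and 0.24. The 95% interval of the fold change lay within 1.5-fold in either direction for 11342 genes, or 71.3% of those tested, and within 2-fold for 85.2%. It lay wholly beyond 1.5-fold for 48 genes. Without DMSO replicate 1 the corresponding values were 69.3%, 82.6% and 118 genes.

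The genes with the largest changes were taken from those called in both fits whose mean level reached 1 log2 CPM, which were 287 higher and 79 lower. The 12 largest rises ran from 0.80 to 1.87 on the log2 scale, with a median of 0.95, or 1.05 without DMSO replicate 1. The 12 largest falls ran from -0.62 to -1.90, with a median of -0.78, or -0.53 without that library. The AH609 libraries lay on 1 side of all 3 DMSO libraries in 11 of the 12 rises and 11 of the 12 falls. They lay on 1 side of DMSO replicates 2 and 3 in all of these genes. Over all genes tested, 8.86% lay above and 7.91% below all 3 DMSO libraries. Against DMSO replicates 2 and 3 the shares were 19.1% and 17.2%. The genes were chosen by calls and size from the same values, so their separation adds no independent evidence. The 2 largest changes in each direction, ranked with all libraries, are described by library. Their calls are also counted over 19 alternatives. These include the fit without DMSO replicate 1, in which a gene had to be called to be chosen, so the counts follow in part from the choice.

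The gene ENSRNOG00000016163 had the largest rise of these, with and without DMSO replicate 1. Its level was 9.71, 6.83 and 7.54 CPM in AH609 replicates 1, 2 and 3, and 4.08, 1.64 and 0.921 CPM in DMSO replicates 1, 2 and 3. All AH609 libraries were above all DMSO libraries, and DMSO replicate 1 was the highest of the controls. The log2 fold change was 1.87 ± 0.34 (SE; edgeR adjusted p = 0.00556), a 3.65-fold rise, and 2.67 ± 0.34 (adjusted p = 7.04e-05) without DMSO replicate 1. Over 19 alternatives it was called in 17, with an adjusted p between 1.4e-18 and 0.383, the highest with the compared groups alone. In medium the gene was also at 9.80 ± 3.98 CPM (SD, n = 3) with IS141 and 6.69 ± 0.223 CPM (SD, n = 3) with AH236, and the test of AH609 against either found no difference past the threshold (log2 difference -0.29, 95% interval -0.88 to 0.31, and 0.26, -0.35 to 0.87). In glutamate its level was higher in every group, at 20.9 ± 0.837 CPM (SD, n = 3) with DMSO and 28.7 ± 2.49 CPM (SD, n = 3) with AH609, a log2 difference of 0.46 ± 0.24 (SE; adjusted p = 0.367, or 0.109 without DMSO replicate 1 in medium).

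The gene ENSRNOG00000005392 followed, although without DMSO replicate 1 it ranked 8 of the 287 rises. It was at 4.99, 4.23 and 3.96 CPM in AH609 replicates 1, 2 and 3 and at 1.42, 2.11 and 2.18 CPM in DMSO replicates 1, 2 and 3. The groups did not overlap, and here DMSO replicate 1 was the lowest control. The log2 fold change was 1.20 ± 0.23 (SE; edgeR adjusted p = 0.00258), and 1.03 ± 0.22 (adjusted p = 0.00271) without DMSO replicate 1. It was called in 18 of 19 alternatives, with an adjusted p between 5.86e-05 and 0.117. Levels in medium were 3.40 ± 0.324 CPM (SD, n = 3) with IS141 and 2.74 ± 0.323 CPM (SD, n = 3) with AH236. Its difference between AH609 and IS141 (log2 0.37) had an edgeR adjusted p of 0.443, or 0.282 without DMSO replicate 1. Its difference between AH609 and AH236 (log2 0.69) had an edgeR adjusted p of 0.451, or 0.0552 without that library. Unlike the first gene, it was lower in glutamate, at 0.719 ± 0.100 CPM (SD, n = 3) with DMSO and 0.888 ± 0.227 CPM (SD, n = 3) with AH609, and the difference there did not pass the test (0.33 ± 0.32, SE; adjusted p = 0.69, or 0.604 without DMSO replicate 1 in medium).

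The gene ENSRNOG00000002548 had the largest fall with all libraries. Its size rested on DMSO replicate 1, without which it ranked 3 of the 79 falls. Its level was 1.24, 1.52 and 1.42 CPM in AH609 replicates 1, 2 and 3, against 11.0 CPM in DMSO replicate 1 and 2.43 and 2.30 CPM in DMSO replicates 2 and 3. The groups did not overlap, but DMSO replicate 1 alone was near the level of the DMSO cultures in glutamate, 12.9 ± 1.79 CPM (SD, n = 3). The log2 fold change was -1.90 ± 0.49 (SE; edgeR adjusted p = 0.0429), and -0.76 ± 0.20 (adjusted p = 0.0202) without that library. It was called in 12 of 19 alternatives, with an adjusted p between 0.000545 and 0.501, and the call was lost without AH609 replicate 1, 2 or 3 (adjusted p = 0.15, 0.125 and 0.126). With AH236 in medium its level was 1.47 ± 0.289 CPM (SD, n = 3) and with IS141 3.12 ± 0.272 CPM (SD, n = 3). The difference between AH609 and IS141 (log2 -1.16) had an edgeR adjusted p of 0.322 with all libraries and 0.000203 without DMSO replicate 1. In glutamate the level with AH609 was 10.2 ± 1.37 CPM (SD, n = 3), and the difference from DMSO there (log2 -0.35) had an adjusted p of 0.709 and 0.046 in the same order.

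The gene ENSRNOG00000009768 ranked 2 of the 79 falls with all libraries and 14 without DMSO replicate 1. It was at 4.35, 3.97 and 3.96 CPM in AH609 replicates 1, 2 and 3. In DMSO replicates 1, 2 and 3 it was at 15.6, 6.11 and 5.71 CPM, so DMSO replicate 1 was again far above the other controls, and above the 12.2 ± 1.22 CPM (SD, n = 3) of the DMSO cultures in glutamate. The log2 fold change was -1.15 ± 0.28 (SE; edgeR adjusted p = 0.0267), and -0.53 ± 0.13 (adjusted p = 0.0126) without DMSO replicate 1. It was called in 13 of 19 alternatives, with an adjusted p between 0.000136 and 0.485, and not without AH609 replicate 1, 2 or 3 (adjusted p = 0.0827, 0.101 and 0.0968). Its medium level was 5.87 ± 0.718 CPM (SD, n = 3) with IS141 and 3.22 ± 0.462 CPM (SD, n = 3) with AH236. The difference between AH609 and IS141 (log2 -0.52) had an edgeR adjusted p of 0.426, or 0.0105 without DMSO replicate 1. Between AH609 and AH236 (log2 0.35) the edgeR adjusted p was 0.943, or 0.25 without that library. In glutamate the AH609 cultures were at 9.59 ± 0.588 CPM (SD, n = 3), a log2 difference of -0.35 from DMSO with an edgeR adjusted p of 0.548, or 0.0332 without DMSO replicate 1 in medium. For both of these genes the estimate there hardly moved, and what moved was its standard error, from 0.35 to 0.11 and from 0.25 to 0.10.

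**Figure D4:**
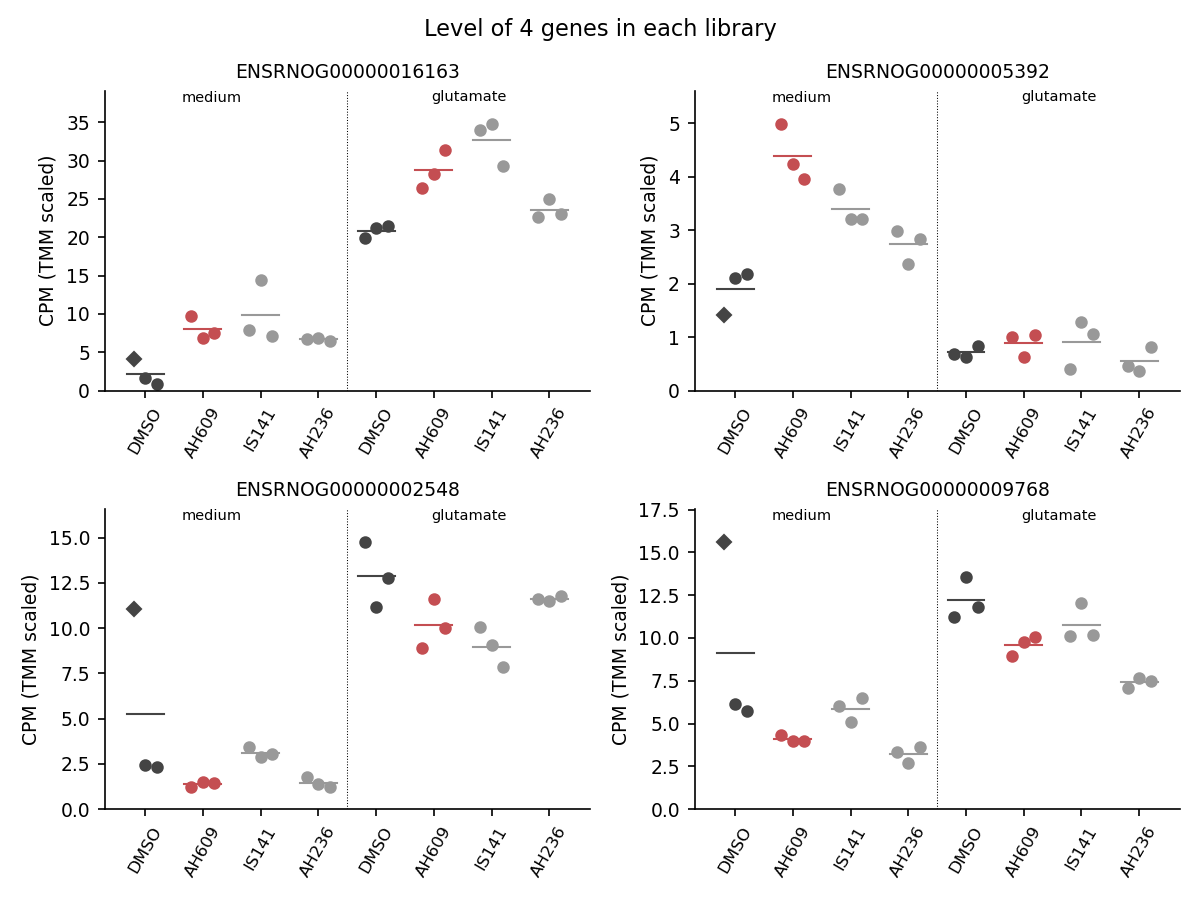
Points give the level (CPM after TMM scaling, linear axes from 0) of the 4 genes in each of the 24 libraries by treatment, with medium left and glutamate right of the dotted line, and bars give group means. DMSO replicate 1 in medium is drawn as a diamond, and in the 2 genes of the lower row it lies at 11.0 and 15.6 CPM, above every other medium library.

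AH609 was next set against DMSO in the glutamate cultures, whose libraries the medium comparison does not use, although all libraries entered the shared fit. There 235 genes were higher (1.48%) and 182 lower (1.14%), or 2.62% in both directions. Of the 352 genes higher in medium, 102 were also called higher in glutamate, which were 29.0% of the medium list and 43.4% of the glutamate list. Of the 352, 0 were called lower in glutamate by edgeR and 2 were lower at an unadjusted p under 0.05. The log2 fold change was positive in 324, or 92.0%, where 49.6% of all genes were positive. Of the 135 lower in medium, 28 were called lower in glutamate, 20.7% of the medium list and 15.4% of the glutamate list, with 1 called higher and a negative fold change in 116. The sizes were smaller than in the medium libraries by which the genes were chosen, with a median log2 fold change in glutamate of 0.17 for the higher genes and -0.17 for the lower genes. Without DMSO replicate 1, 203 of 719 and 101 of 284 were called in the same direction and 4 and 5 in the opposite one, where 3.52% of all genes were called higher and 2.65% lower, together 6.17%. Sign shares were then 83.2% positive among the higher genes and 13.7% among the lower.

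**Figure D5:**
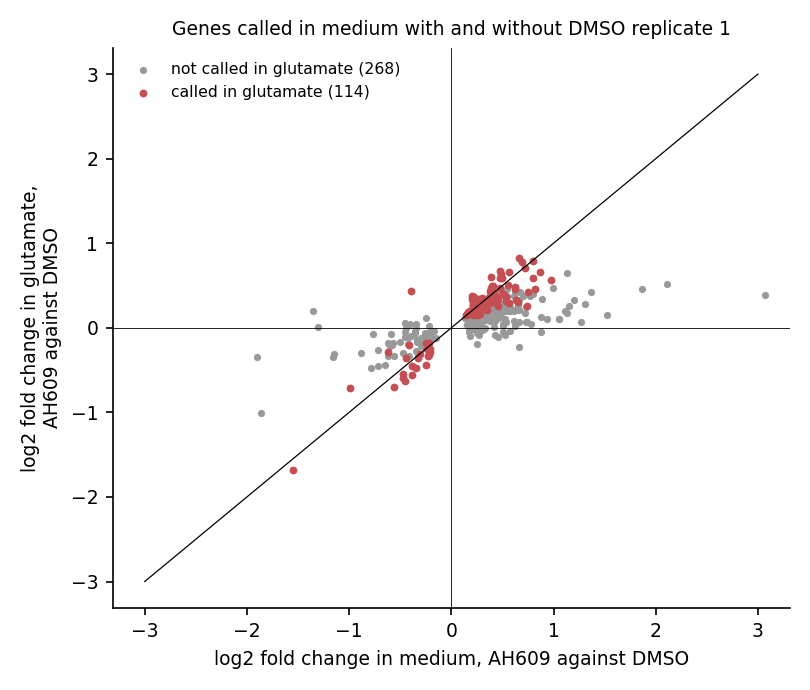
Each point is 1 of the 382 genes called in medium with and without DMSO replicate 1, with its log2 fold change for AH609 against DMSO in medium (horizontal axis) and in glutamate (vertical axis, from other libraries). The 114 genes called in glutamate are red. Of the 299 genes higher in medium, 279 lie above 0 on the vertical axis, and of the 83 lower genes 75 lie below.

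Whether the effect of AH609 differed between the media was tested directly. The difference passed the test for 4 genes (0.0251%), 2 in each direction, with 1151 genes at an unadjusted p under 0.05. Without DMSO replicate 1 it passed for 214 genes (1.33%), of which 179 (1.11%) had a lower effect in glutamate. In these 214 genes the median log2 fold change of AH609 was 0.47 in medium and 0.02 in glutamate. Of them, 154 were called in medium and 69 in glutamate, against 6.22% and 6.17% of all genes tested. The genes were chosen by this difference in the same fit, so the medians and calls follow in part from the choice.

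The genes higher with AH609 in medium were also often genes that glutamate raises. The effect of glutamate was taken over the IS141 and AH236 cultures, which share no library with the comparison of AH609 and DMSO. Of all genes tested, 34.2% were called higher and 35.7% lower in glutamate there. Of the 352 genes higher with AH609, 214 were called higher in glutamate and 65 lower, or 60.8% and 18.5%. Of the 135 lower with AH609, 53 were called higher and 54 lower, or 39.3% and 40.0%. In the most abundant of the 4 level classes, where calls with AH609 were most frequent, 42.3% were called higher and 37.2% lower in glutamate. Without DMSO replicate 1, 66.8% of the genes higher with AH609 were called higher in glutamate against 35% of all genes, and 53.2% of those lower with AH609 were called lower against 36.6%.

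A score per library put this on 1 scale, as the mean log2 CPM of 1052 genes that glutamate raised at least 2-fold in both IS141 and AH236 cultures minus that of 607 it lowered as much. It was -1.25, -1.29 and -1.09 in AH609 replicates 1, 2 and 3 and -0.90, -1.48 and -1.44 in DMSO replicates 1, 2 and 3. The AH609 libraries thus lay between DMSO replicate 1 and the 2 other controls, and AH609 replicate 3, the highest of its group, was also the AH609 library nearest to DMSO replicate 1 in the distances above. Most of the range came from the raised genes, whose mean was 1.32, 1.30 and 1.49 log2 CPM with AH609 and 1.72, 1.13 and 1.15 with DMSO. In medium the score was between -1.05 and -0.96 with IS141 and between -1.35 and -1.22 with AH236, whose libraries helped choose the genes. The mean of the lowered genes lay between 2.57 and 2.63 log2 CPM in all 6 AH609 and DMSO libraries. What set DMSO replicate 1 apart was not tested.

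AH609 was finally compared with the other agents in medium, with no DMSO library in the contrast. Against IS141, 96 genes were higher (0.603%) and 83 lower (0.522%), together 1.13%, and 27 of the 29 differences of at least 1.5-fold were lower with AH609, or 91 of 100 without DMSO replicate 1. Against AH236, 8 genes were higher and 0 lower (0.0503%), with 586 higher and 414 lower at an unadjusted p under 0.05. DESeq2 called 26 genes and the fit with sample weights 296. Although DMSO replicate 1 is not in these contrasts, it entered the shared fit, and the counts changed when it was left out. Then 404 genes were higher (2.51%) and 385 lower (2.39%) than with IS141, together 4.89%. Against AH236, 206 were higher (1.28%) and 50 lower (0.31%), together 1.59%. With only the 2 groups in the fit, 1000 genes differed from IS141 and 208 from AH236. With the 12 medium libraries in the fit, the counts were instead 3 and 1. The 95% interval of the difference between AH609 and AH236 lay within 1.5-fold for 73.6% of the genes, and for 72.3% against IS141, or for 74.4% and 73.1% without DMSO replicate 1, so for the remaining genes a difference of that size was not excluded by these libraries.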

How the data were processed

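RNA of rat cortical cells was sequenced in 24 libraries. The authors deposited raw whole-number counts for 32754 Ensembl gene IDs in 1 table. STAR 2.7.8a, RSEM 1.3.3, cutadapt 2.3, bcl2fastq, FastQC 0.11.8 and the build Rnor_6.0 are named in the submitters' processing notes. The sources used here do not give the annotation release or the strand setting. Since RSEM gives estimates, these counts may be rounded, and genes that share reads with copies or overlapping genes are uncertain.

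Columns were matched to samples by their descriptions and groups were taken from titles. The test was that of edgeR 4.0.16 (R 4.3.3; filterByExpr, TMM, robust dispersions, quasi-likelihood F test, 1 mean per group, all 24 libraries), with Benjamini-Hochberg adjustment over the genes tested in each of 5 comparisons and calls under 0.05. The common biological coefficient of variation was 7.49%, and 5.82% without DMSO replicate 1. Standard errors were computed back from the log2 fold change and the F statistic of the test. Log2 CPM used a prior count of 2. The fit was tested on simulated data in which no library was made to stand apart, so that test does not cover DMSO replicate 1. Alternatives were DESeq2 1.42.0, limma 3.58.1 (voom with sample quality weights), other scalings, filters and sets of libraries.

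The members, lists and rules were chosen with earlier results of these data known. Named genes had to be called in the same direction with and without DMSO replicate 1 and have a mean of at least 1 log2 CPM, ranked by log2 fold change. The part of the rule on symbols and the 45 gene lists (823 genes) could not be applied, because 0 IDs matched the RefSeq gene table, and no sequence could be matched either. Only 2 IDs per direction are printed.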

Additional observations from a re-analysis of the deposited data

Results flagged for a closer look

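A test of the difference between the media found an AH609 effect that was not the same in medium and in glutamate for 4 genes with all libraries and for 214 genes without DMSO replicate 1 (edgeR, adjusted p under 0.05). Among the 4 genes described by library, ENSRNOG00000016163 passed this test without DMSO replicate 1, where its log2 fold change with AH609 was lower in glutamate than in medium by a difference of -2.20 ± 0.39 (SE; adjusted p = 0.00725). With all libraries the difference was -1.40 ± 0.42 (SE; adjusted p = 0.388). The gene was named for its rise in medium, which this test uses again. A smaller effect in glutamate thus follows in part from that choice. The test for a single outlying value was not run, because it needs at least 4 libraries in a group.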

How the results depend on the processing

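For AH609 against DMSO in medium, the 487 calls became 1079 with voom sample weights, 177 with the 12 medium libraries alone, 3 with the compared groups alone and 1240 with those groups without DMSO replicate 1. The rises (352) and falls (135) became 724 and 355, 137 and 40, 2 and 1, and 807 and 433, in that order, and 224 and 250 with library totals. The falls were 206 with DESeq2 and 87 with no filter. Changes of at least 1.5-fold (90) became 220 with voom, 36 with the medium libraries, 3 with the compared groups and 255 with those groups without DMSO replicate 1. With 1 of the 6 libraries left out, calls ran from 223 (without AH609 replicate 1) to 1003 (without DMSO replicate 1), rises from 175 to 719, falls from 44 to 284 and changes of at least 1.5-fold from 48 to 258. Falls were 249 without DMSO replicate 2 and 236 without DMSO replicate 3. Without DMSO replicate 1, alternatives chosen after seeing the data gave 1011 calls with RLE size factors (745 higher, 266 lower, 262 of at least 1.5-fold), 969 with library totals (550, 419, 249), 1062 with DESeq2 (795, 267, 251) and 1156 with voom (769, 387, 236). In that last setting ENSRNOG00000002548 missed the threshold.

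Against IS141 the 179 calls became 375 with DESeq2, 977 with voom, 1000 with the compared groups and 3 with the medium libraries, and ran from 15 (without AH609 replicate 2) to 789 (without DMSO replicate 1). Against AH236 the 8 became 26, 296, 208 and 1, and ran from 2 to 256. In glutamate the 417 became 758 with voom and ran from 163 to 995. The difference between the media (4) became 28 with DESeq2, 82 with voom, 14 with no filter, 142 with the compared groups without DMSO replicate 1 and 0 with all of the compared groups, where 813 genes had an unadjusted p under 0.05. It ran from 0 (without AH609 glutamate replicate 3, 1002 at an unadjusted p under 0.05) to 214. The cause was not tested for any of these. The 4 genes described kept their direction in all 19 alternatives.

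With the title number as a replicate block (titles with no number taken as 1, and both AH236 glutamate libraries that carry a 2 kept at 2), 487 genes were called (349 higher, 138 lower), and the block changed no call of the 4 genes. Deviations of same-numbered libraries correlated at -0.12, 0.01 and -0.10. Each deviation is taken from the group mean, so DMSO replicate 1 also moves those of the other controls. These values therefore cannot decide whether the numbers pair the libraries. Depth limits small changes in genes of low level.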
